A study of Mus musculus with 17 samples.

Results

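The AP-1 transcription factors of the Fos and Jun families were followed across sorted mouse CD4 T cells. The set holds the 7 genes Fos, Fosb, Fosl1, Fosl2, Jun, Junb and Jund. It was chosen by name, as every probe set that the platform's gene table assigns to 1 of these genes, which gave 11 probe sets of the 45101 on the array and 7 of its 18194 named genes. Fosl1, Fosl2, Jun and Jund have 2 probe sets each, and Fos, Fosb and Junb have 1.

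AP-1 is a dimer of leucine zipper proteins that binds DNA. Jun proteins (Jun, Junb, Jund) pair with each other or with a Fos protein (Fos, Fosb, Fosl1, also called Fra-1, and Fosl2, also called Fra-2), whereas Fos proteins need a partner such as Jun to bind. Fos and Jun are classical immediate early genes, induced within minutes of stimulation, while Jund is made more steadily. In T cells AP-1 joins NFAT, the factor switched on by calcium signals from the antigen receptor, at cytokine genes such as Il2, and Batf, a related zipper protein, competes with Fos for Jun. Retinoic acid (RA), a hormone-like product of vitamin A, acts through nuclear receptors that are known from other cell types to interfere with AP-1.

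Transcripts were measured on 17 Affymetrix mouse arrays in a pair of culture experiments, with 3 male mice of 6 to 10 weeks pooled for each array. The memory experiment has a MemoryRA and a Memory group (3 arrays each). Both hold C57BL/6 memory CD4 T cells (CD44hi CD62L- CD25-, from spleen and lymph nodes) cultured for 48 hours beside naive CD4 cells that carried another CD45 allele. Both cultures held beads with antibodies to CD3 and CD28, 20 U/ml IL-2 and 10 ng/ml transforming growth factor beta (TGF-beta). MemoryRA cells also had 100 nM RA, and the memory cells were sorted again by CD45 allele. In the co-culture experiment, CD4+ Foxp3- spleen T cells came from C57BL/6 mice in which green fluorescent protein (GFP) reports Foxp3, the factor that defines regulatory T cells. Their 5-day cultures held dendritic cells (DC), from the gut lamina propria (LP), from spleen with 100 nM RA added (SpRA) or from spleen alone (Sp). All 3 cultures held antibody to CD3 at 1 µg/ml, 0.6 ng/ml TGF-beta and 5 ng/ml IL-2. Each was then sorted by GFP into Foxp3+ and Foxp3- cells, which gave the groups LP Foxp3+, LP Foxp3-, SpRA Foxp3+, SpRA Foxp3-, Sp Foxp3+ and Sp Foxp3-. These groups have 2 arrays each, except SpRA Foxp3-, which has 1, numbered 2. The labels conflict on the sort: for 5 of the 6 Foxp3+ samples the source name reads Foxp3-, which is also the state of the starting cells. The sample title and the label of the sort after culture read Foxp3+ for all 6, and the groups follow the title.

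Values below are log2 of the deposited intensity. Array medians lay between 5.88 and 5.98 on that scale, and a value near them cannot be told from background here. Arrays with the same number deviated together within each experiment, so each difference was fitted with limma without a number term, as planned (unpaired), and again with the array number as a block (paired). A gene is said to rise or fall where it passed an adjusted p of 0.05 in the paired fit. That rule rests on a pairing inferred from these same data, and no member passed in the unpaired fit of all arrays. On simulated data the paired fit of the memory comparison made false calls above its nominal rate. Where a member passed, the unpaired value of its brighter or only probe set stands beside it. Other genes and probe sets given with a paired value alone did not pass unpaired. Differences are given ± standard error. P-values measure the spread between these arrays alone. The arrays numbered 3 stood apart, with a median correlation to the other arrays of 0.885 for MemoryRA and 0.875 for Memory, against 0.963 to 0.972 for the other 15. All 9 measured T cell identity genes of 10 listed were above the median on every array. The Foxp3 probe set did not mark the sort, with 4.09 to 4.53 in Foxp3+ and 3.88 to 4.44 in Foxp3- co-cultured cells, below the array median. It was above the median in the memory experiment, at 7.08 to 8.26 in Memory and 7.79 to 9.14 in MemoryRA cells. The reason was not tested. A list of 9 regulatory T cell genes did differ, with a summed intensity of 27427 to 28281 in LP Foxp3+ and 12177 to 12291 in LP Foxp3- cells. A list of 5 RA-responsive genes summed to 3416 to 3789 in MemoryRA and 307 to 472 in Memory cells. In such bulk samples, fewer cells that make a transcript and less of it per cell cannot be told apart.

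The promoters of the 3 members that passed a test are shown first, 250 bases before and 50 from the RefSeq start on build GRCm38.p6, in the direction of the gene. Capitals mark matches, on either strand, to 9 motifs searched as plain letters. Fos lies on the plus strand at chr12:85473640-85473939, Jun on the minus strand at chr4:95052173-95052472 and Fosl2 on the plus strand at chr5:32136222-32136521. Fosb lies on chromosome 7, Junb and Jund on 8 and Fosl1 on 19.
Fos: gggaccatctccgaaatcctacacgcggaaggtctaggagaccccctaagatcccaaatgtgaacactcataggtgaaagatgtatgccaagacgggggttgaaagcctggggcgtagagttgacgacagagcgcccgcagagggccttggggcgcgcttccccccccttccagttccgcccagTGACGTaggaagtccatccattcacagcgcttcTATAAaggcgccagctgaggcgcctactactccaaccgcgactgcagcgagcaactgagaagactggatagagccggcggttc
Jun: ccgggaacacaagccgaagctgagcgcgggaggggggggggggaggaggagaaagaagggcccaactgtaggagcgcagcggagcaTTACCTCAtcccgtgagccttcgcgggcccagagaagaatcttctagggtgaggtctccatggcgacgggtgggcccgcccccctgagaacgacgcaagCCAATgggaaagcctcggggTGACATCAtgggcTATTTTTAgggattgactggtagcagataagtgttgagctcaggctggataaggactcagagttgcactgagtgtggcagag
Fosl2: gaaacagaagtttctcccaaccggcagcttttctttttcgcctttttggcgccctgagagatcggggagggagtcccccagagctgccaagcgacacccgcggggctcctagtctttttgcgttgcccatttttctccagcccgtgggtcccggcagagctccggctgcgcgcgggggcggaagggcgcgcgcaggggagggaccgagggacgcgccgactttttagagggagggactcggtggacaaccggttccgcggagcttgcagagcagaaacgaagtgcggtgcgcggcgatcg

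In Fos the capitals are TGACGT, the 5′ part of a cyclic AMP response element, at positions -66 to -61 from the start, and the TATA box letters TATAA at -33 to -29. In Jun they are TTACCTCA at -164 to -157 and TGACATCA at -45 to -38, known as the distal and proximal AP-1-like sites of this promoter. CCAAT lies between them at -65 to -61. Nearer the start is TATTTTTA, the core of a MEF2 factor site, at -32 to -25. Fosl2 held none of the 9 motifs. Among 32851 mouse promoters of the same length, 7.51% held TGACGT (which also lies within TGACGTCA), 24.9% TATAA, 37.4% CCAAT, 3.62% TGACATCA, 0.889% TTACCTCA and 2.72% TATTTTTA. The other 3 motifs searched had no match in these promoters, and of all promoters 5.2% held the consensus AP-1 site TGACTCA, 1.79% TGACGTCA and 16.3% the retinoic acid receptor element letters AGGTCA. In 6 of the 7 members a promoter entry was found. Junb held CCAAT at -36 to -32 and TATAA at 1 to 5, Fosb and Jund held none, and Fosl1 has no entry. A match is a description of letters and no measure of binding.

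Fos, the founding member of its family, gave the simplest pattern of the set. In the 6 arrays of cultures with added RA its log2 intensity was 10.14 to 11.60, and in the 11 arrays without it 8.24 to 10.08. The ranges did not overlap in either experiment or across them. Of the 11432 genes measured in both experiments, 9 (0.0787%) were higher in all RA arrays in this way. The split was noticed after the values were seen and was given no test of its own. None of the other 6 members split so. Jun had 6.99 to 9.16 with and 5.84 to 9.42 without RA, and Fosl2 had 6.51 to 11.38 with and 7.97 to 11.62 without.

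By group mean, Fos was highest in SpRA Foxp3+ cells, at 11.22 and 10.77 (SD 0.32). It averaged 10.72 ± 0.78 (SD over a group's arrays, here and below) in MemoryRA cells and read 10.35 on the single SpRA Foxp3- array. Sp Foxp3+ and LP Foxp3+ cells followed, at 9.47 ± 0.86 and 9.47 ± 0.45. LP Foxp3- cells had 9.30 ± 0.22, Sp Foxp3- cells 8.83 ± 0.83 and Memory cells 8.66 ± 0.42. Of neighbours in this order, only SpRA Foxp3- and Sp Foxp3+ had arrays that did not overlap, and the share of all genes with that gap was not counted. The transcript was bright on every array, at the 81.8th to 97.9th percentile of probe sets.

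Fosl2, which lacks the strong activation domain of Fos, separated the experiments instead, on its brighter probe set. Its highest single reading was 11.62, on a Sp Foxp3+ array. In order of group level, with 1 array set against means, it read 11.38 on the SpRA Foxp3- array, followed by Sp Foxp3+ (11.10 ± 0.74), Sp Foxp3- (11.01 ± 0.52) and SpRA Foxp3+ cells (10.47 ± 1.16). LP Foxp3+ and LP Foxp3- cells had 10.05 ± 0.29 and 9.81 ± 0.63. Memory cells had 8.42 ± 0.63 and MemoryRA cells 6.92 ± 0.68. Every co-culture array, from 9.37 upward, lay above every memory array, of which the highest read 9.15. Culture length, stimulus and cell source all differ between the experiments and cannot be told apart here. The other Fosl2 probe set was also above the median on all 17 arrays, with a narrower range of 6.06 to 8.20, but did not separate the experiments. It read 6.62 to 6.65 in LP Foxp3+ and 6.72 in LP Foxp3- cells, against 6.65 to 6.90 in Memory cells. The share of all genes that separate the experiments was not counted.

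Jun, the classical partner of Fos, was brightest in 5 of the 6 co-culture groups. It averaged 9.05 ± 0.07 in Sp Foxp3+, 9.04 ± 0.54 in LP Foxp3+, 8.96 ± 0.28 in SpRA Foxp3+ and 8.60 ± 0.38 in Sp Foxp3- cells and read 8.51 in SpRA Foxp3-. MemoryRA cells had 7.65 ± 1.09, LP Foxp3- cells 7.61 ± 0.58 and Memory cells 6.45 ± 1.00. All neighbours in this order overlapped. Jun was above the array median on 15 of 17 arrays, the exceptions being Memory arrays 1 and 2.

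Jund, the Jun protein of resting cells, varied least among the bright members (SD 0.40 over 17 arrays, against 0.99 for Fos, 1.12 for Jun and 1.65 for Fosl2). Its group means ran from 9.44 on the SpRA Foxp3- array to 10.45 ± 0.40 in Memory cells. MemoryRA cells had 10.36 ± 0.35, LP Foxp3+ cells 10.08 ± 0.08, LP Foxp3- cells 9.88 ± 0.04, SpRA Foxp3+ cells 9.87 ± 0.08, Sp Foxp3+ cells 9.69 ± 0.24 and Sp Foxp3- cells 9.68 ± 0.29. Neighbours in this order overlapped, except LP Foxp3+ over LP Foxp3- cells and Sp Foxp3- cells over the SpRA Foxp3- array. Such gaps were common, as 14.8% of genes were higher without overlap in LP Foxp3+ than in LP Foxp3- cells. On the SpRA Foxp3- array 21.9% of genes lay below both Sp Foxp3- arrays. Jund did not pass in the LP-DC sort (0.21 ± 0.16, adjusted p = 0.762 paired). The other Jund probe set, at 4.69 to 5.75, was below the median on all 17 arrays.

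**Figure D1:**
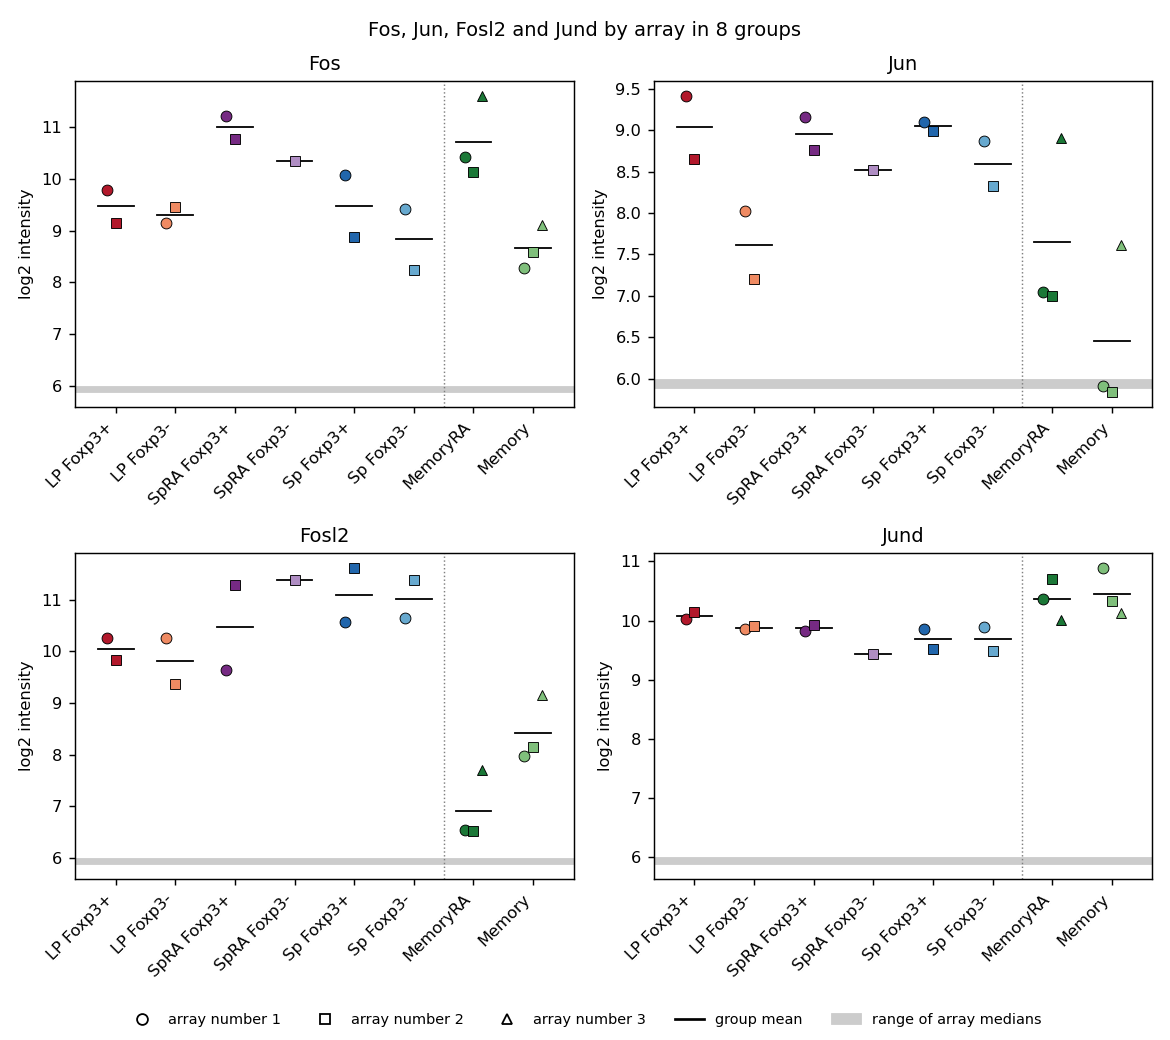
Log2 intensity of Fos, Jun, Fosl2 and Jund on each array of the 8 groups, with the marker shape giving the array number, the line the group mean and the grey band the range of array medians. Fos was at 10.14 or more on the 6 RA arrays and at 10.08 or less elsewhere, and Fosl2 was lowest in MemoryRA cells.

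The remaining members lay near the array median. Fosb, an inducible relative of Fos, read 5.14 to 6.06 and exceeded the median on 3 of 17 arrays, all of them co-culture arrays. Junb, an inducible Jun protein that is often a weaker activator, read 4.79 to 6.33 and exceeded it on 4, also co-culture arrays. Fosl1, an AP-1 member induced later than Fos, exceeded it on 4, all memory arrays. Its values were 6.41, 6.23 and 5.58 in MemoryRA and 6.35, 6.87 and 5.44 in Memory cells, against 5.06 to 5.40 in the co-culture, and its other probe set (4.54 to 5.11) was below the median throughout. Fosb and Junb did not pass the signal filter in the memory experiment, nor Fosl1 in the co-culture, so 5 members were tested in the first and 6 in the second.

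**Figure D2:**
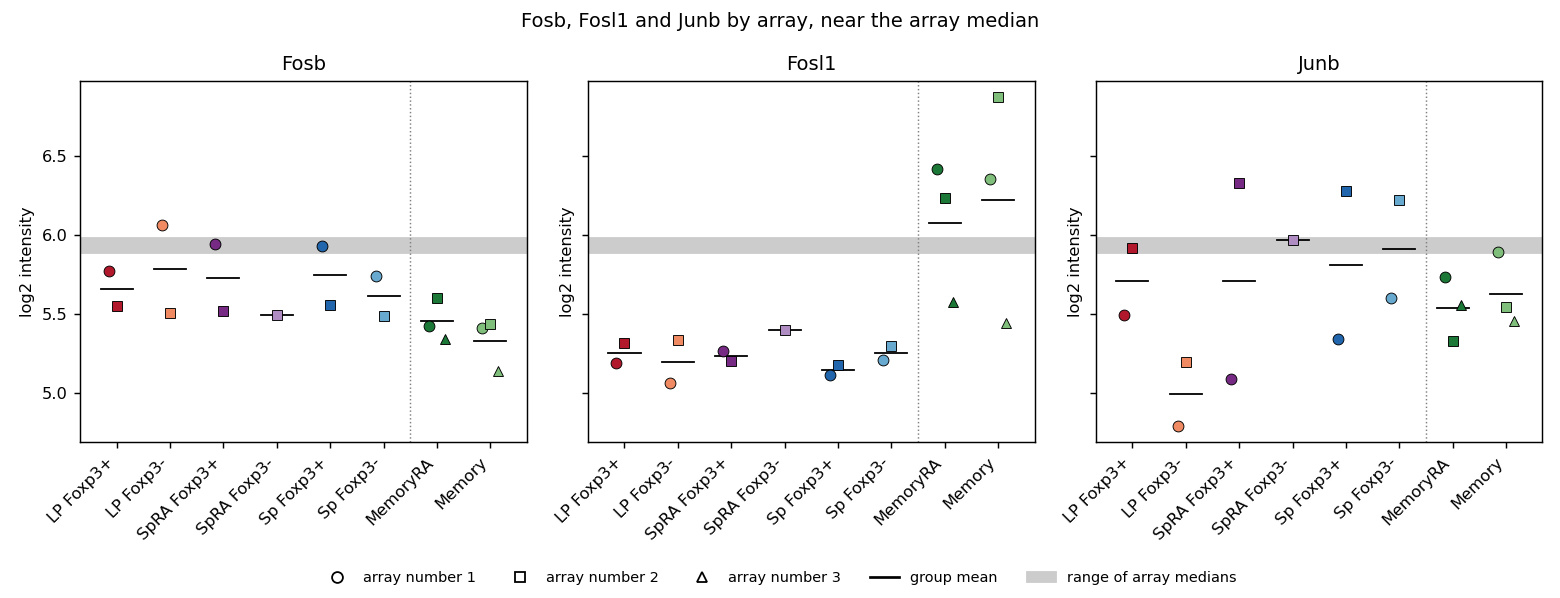
Log2 intensity of Fosb, Fosl1 and Junb on each array of the 8 groups, drawn as for the bright members. Most points lie within or under the grey band of array medians (5.88 to 5.98), and Fosl1 exceeded it only on 4 memory arrays.

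RA in memory cells came with more Fos and Jun and less Fosl2. Fos was 10.41, 10.14 and 11.60 on MemoryRA arrays 1, 2 and 3 and 8.28, 8.59 and 9.11 on Memory arrays 1, 2 and 3. The groups did not overlap, which 4.25% of genes also showed upward. Within each number Fos was higher with RA, by 2.14, 1.54 and 2.49. It rose 4.16-fold (log2 2.06 ± 0.18, 95% interval 1.65 to 2.46, adjusted p = 0.000247 paired and 0.270 unpaired).

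Fosl2 was 6.54, 6.51 and 7.70 in MemoryRA cells and 7.97, 8.15 and 9.15 in Memory cells. These groups did not overlap either, as held for 3.56% of genes downward, and the array numbered 3 was the highest of each group. Within numbers the differences were -1.44, -1.63 and -1.45. Fosl2 fell 2.84-fold (-1.51 ± 0.13, interval -1.80 to -1.22, adjusted p = 0.000233 paired and 0.658 unpaired). Its other probe set gave 6.34, 6.81 and 6.06 in MemoryRA and 6.90, 6.78 and 6.65 in Memory cells, which overlap, and did not pass (-0.37 ± 0.16, adjusted p = 0.333 paired).

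Jun was 7.04, 6.99 and 8.91 in MemoryRA cells and 5.91, 5.84 and 7.61 in Memory cells. The groups overlapped, with Memory array 3 above MemoryRA arrays 1 and 2, but the difference within a number hardly varied, at 1.13, 1.16 and 1.30. Jun rose in the paired fit (1.20 ± 0.13, interval 0.91 to 1.48, adjusted p = 0.000697), whereas the unpaired adjusted p was 1.00. Memory arrays 1 and 2 lay below their array medians and cannot be told from background, so this probe set does not settle the size of the change. The other Jun probe set, above the median on every array, read 7.78, 8.05 and 8.44 in MemoryRA and 6.79, 7.41 and 7.55 in Memory cells, without overlap. It rose too (0.84 ± 0.14, adjusted p = 0.0122 paired).

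Jund had 10.37, 10.71 and 10.01 in MemoryRA and 10.89, 10.32 and 10.13 in Memory cells. It did not pass, with an interval of -0.48 to 0.31 (-0.08 ± 0.17, adjusted p = 0.887 paired). Fosl1 did not pass (-0.15 ± 0.17, interval -0.53 to 0.23, adjusted p = 0.770 paired). In all, 2 of 5 tested members rose and 1 fell in the paired fit, where 2.6% of genes rose and 2.34% fell (4.94% together). In the unpaired fit limma called 0 of 5 and 0.0829% of all genes. Unpaired, 2 of 5, Fos and Fosl2, had an unadjusted p under 0.05, as did 495 of all 12062 genes.

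For the 5 tested members the arrays numbered 3 differed from the mean of numbers 1 and 2 in the same direction with and without RA. For Jun this was 1.89 in MemoryRA and 1.74 in Memory cells, for Fosl2 1.17 and 1.09, for Fos 1.33 and 0.67, for Fosl1 -0.75 and -1.17 and for Jund -0.52 and -0.48. Junb, not tested there, had 0.03 in MemoryRA and -0.26 in Memory cells. With both left out, a choice made after the values were seen, the unpaired fit called the same 3 members. Fos differed by 1.84 (adjusted p = 0.00780), Fosl2 by -1.54 (adjusted p = 0.00780) and Jun by 1.14 (adjusted p = 0.0170), where 1.67% of genes were called. Of the 5 genes tested from a CD8 T and NK cell list, 3 rose with RA when paired (Klrd1, Nkg7 and Gzmk) and 0 when unpaired. The 8 measured genes of the list summed to 1761 to 2214 in MemoryRA and 842 to 1148 in Memory cells. The defining genes Cd8b1 and Ncr1 lay below the array median in both groups. A B cell list (5 measured genes) summed to 1930 to 2925 in MemoryRA and 1106 to 1549 in Memory cells. In all 8 groups Ighm, at 9.84 or more, made most of that sum, while Cd79a, Cd79b, Ms4a1 and Pax5 read 6.93 or less. Between MemoryRA and Memory cells only Ighm did not overlap (10.76 to 11.38 in MemoryRA, 9.84 to 10.30 in Memory cells). The part of these lists in the AP-1 values was not tested.

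**Figure D3:**
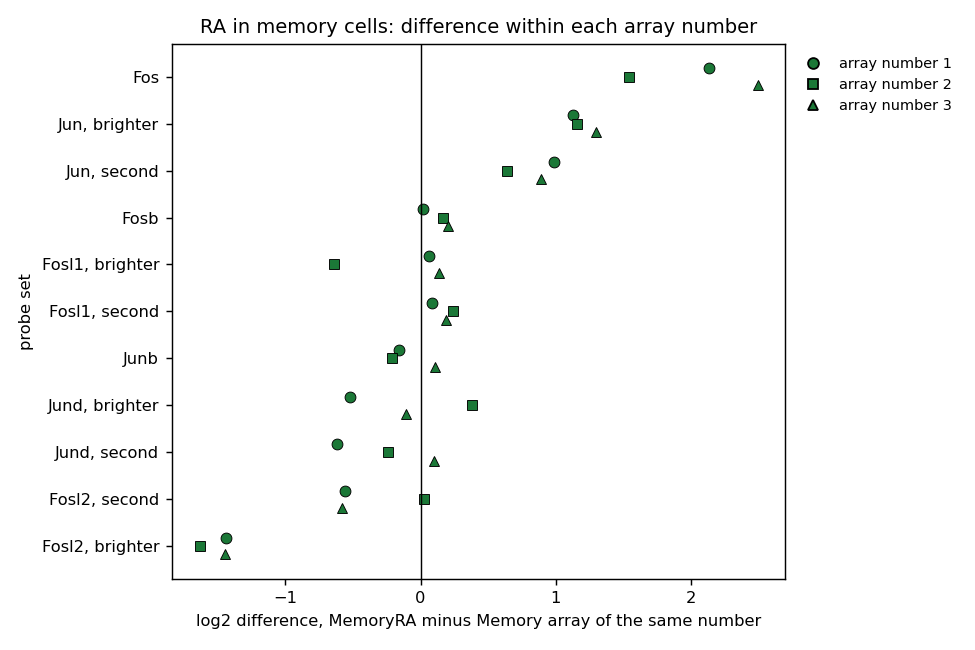
MemoryRA minus Memory log2 difference within each array number for all 11 probe sets of the 7 members. Fos (1.54 to 2.49) and both Jun probe sets (0.64 to 1.30) lie above 0 at every number, and the brighter Fosl2 probe set lies below it (-1.63 to -1.44).

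RA in the spleen DC culture was measured in both sorts. Among Foxp3+ cells, Fos read 11.22 and 10.77 in SpRA and 10.08 and 8.87 in Sp cultures. The groups did not overlap, as held for 12.9% of genes upward, and the differences within numbers were 1.14 and 1.90. Fos was 2.87-fold higher and lay just outside the threshold (1.52 ± 0.31, interval 0.83 to 2.21, adjusted p = 0.0548 paired and 0.736 unpaired). In the paired fit it passed when the arrays were quantile normalized, but not when each probe set was tested on its own (adjusted p = 0.0621).

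Among Foxp3- cells the single SpRA array had Fos at 10.35, against 9.42 and 8.24 on the Sp arrays, above both, as 38.7% of genes were. Its difference from the Sp array of the same number was 2.11. With the spread taken from the other groups, it did not pass (1.84 ± 0.39, interval 0.97 to 2.71, adjusted p = 0.120 paired).

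Jun showed no such difference beyond error. It read 9.16 and 8.76 in SpRA Foxp3+ and 9.10 and 8.99 in Sp Foxp3+ cells, which overlap, with an interval of -0.48 to 0.31 around -0.09 (adjusted p = 0.903 paired). Fosl2 was 9.65 and 11.29 in SpRA Foxp3+ and 10.58 and 11.62 in Sp Foxp3+ cells, a difference of -0.63 ± 0.49 with an interval of -1.74 to 0.47 (adjusted p = 0.673 paired). Of 6 members, limma called 0 in Foxp3+ cells and 0 in Foxp3- cells in either fit. In Foxp3+ cells only Fos had an unadjusted p under 0.05, in each fit. The same held for 1454 of all 11846 genes when paired and 570 when unpaired. The paired fit called 1.12% of all genes in Foxp3+ and 0.262% in Foxp3- cells, and the unpaired fit 0.101% and 0.00844%. The RA-responsive list summed to 3658 to 4470 in SpRA Foxp3+ and 608 to 940 in Sp Foxp3+ cells. Summed marker levels of other cells were separate in some lists. The CD8 T and NK cell list summed to 2414 to 2998 in SpRA Foxp3+ and 4073 to 5256 in Sp Foxp3+ cells. The B cell sum, most of it Ighm, was 1890 to 2052 in SpRA Foxp3+ and 1601 to 1800 in Sp Foxp3+ cells. A list of 12 measured DC and macrophage genes overlapped (1915 to 2936 in SpRA Foxp3+, 1979 to 2582 in Sp Foxp3+ cells), but its macrophage gene Adgre1 did not, at 8.10 to 8.97 in SpRA Foxp3+ and 7.40 to 7.99 in Sp Foxp3+ cells. The part of these genes in the Fos values was not tested.

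The difference between the RA effects was tested directly, for memory cells minus Foxp3+ cells, on the 4 members measured in both. Jun passed (1.28 ± 0.21, interval 0.82 to 1.74, adjusted p = 0.00994 paired and 1.00 unpaired), 1 of 4 where 1.41% of genes were called (0.84% upward) and 0.0525% unpaired. Its RA difference was 1.20 in memory and -0.09 in Foxp3+ cells. The Jun value includes the 2 Memory arrays below their medians, so its size is not settled. The other Jun probe set, above the median on every array, had a smaller value that did not pass (0.76 ± 0.19, adjusted p = 0.0958 paired). The Jun call was lost without SpRA Foxp3+ array 1 (adjusted p = 0.0666) or Sp Foxp3+ array 2 (adjusted p = 0.0697). For Fos the effects did not differ beyond error (0.54 ± 0.39, interval -0.31 to 1.38, adjusted p = 0.651 paired), nor did those of Fosl2 (-0.88 ± 0.56, interval -2.08 to 0.33, adjusted p = 0.586 paired) or Jund (-0.27 ± 0.26, adjusted p = 0.751 paired). Cell type and culture differ together here and cannot be told apart.

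Jun was also the member that followed the Foxp3 sort, and most in the LP-DC culture. It read 9.42 and 8.66 in LP Foxp3+ and 8.02 and 7.20 in LP Foxp3- cells. The groups did not overlap, as for 14.8% of genes upward, and the differences within numbers were 1.40 and 1.46. Jun rose 2.69-fold (1.43 ± 0.18, interval 1.03 to 1.82, adjusted p = 0.00273 paired and 0.207 unpaired). The other probe set, with 8.98 and 8.53 in LP Foxp3+ and 7.80 and 7.28 in LP Foxp3- cells, rose too (1.21 ± 0.14, adjusted p = 0.00259 paired).

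Junb pointed the same way at a level near the median, with 5.49 and 5.92 in LP Foxp3+ and 4.79 and 5.20 in LP Foxp3- cells, and did not pass (0.71 ± 0.20, interval 0.26 to 1.16, adjusted p = 0.107 paired). Fos was 9.79 and 9.15 in LP Foxp3+ and 9.14 and 9.45 in LP Foxp3- cells, overlapping, with an interval of -0.52 to 0.86. Of 6 members 1 rose, where 2.4% of genes rose and 3.58% were called either way. The unpaired fit called 0 of 6 (0.135% of all genes), with 1 at an unadjusted p under 0.05, as were 714 of all 11846 genes.

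In the Sp culture, Jun read 9.10 and 8.99 in Foxp3+ and 8.87 and 8.32 in Foxp3- cells (0.45 ± 0.18, interval 0.06 to 0.84, adjusted p = 0.415 paired). Fos read 10.08 and 8.87 in Foxp3+ and 9.42 and 8.24 in Foxp3- cells, 0.66 and 0.63 apart within numbers (0.65 ± 0.31, interval -0.04 to 1.33, adjusted p = 0.565 paired). Neither passed, and in this sort 0.557% of genes did. In the SpRA culture Jun read 9.16 and 8.76 in Foxp3+ cells and 8.51 on the single Foxp3- array. Jun differed there by 0.18 (interval -0.31 to 0.68) and Fos by 0.33 (interval -0.54 to 1.20), where 0.0253% of genes passed. In these 2 sorts limma called 0 of 6 members, and the unpaired fit called 0% of genes in both. In the Sp culture 1 member (Jun) had an unadjusted p under 0.05 when paired, as did 1132 of all 11846 genes.

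Averaged over the 3 cultures, Jun rose 1.61-fold with the sort (0.69 ± 0.11, interval 0.44 to 0.94, adjusted p = 0.00662 paired and 0.226 unpaired). It was the only 1 of 6 members to pass, where 2.63% of genes rose, 4.79% were called either way and 0.92% passed unpaired. Its other probe set gave 0.57 (adjusted p = 0.00762 paired). The larger Jun difference in the LP than in the Sp culture did not pass its own test (0.98 ± 0.25, interval 0.42 to 1.53, adjusted p = 0.653 paired). For that test limma called 0% of genes in either fit. When paired 2 of 6 members, Jun and Junb, had an unadjusted p under 0.05, as did 434 of all 11846 genes. Of the 6 genes tested from the CD8 T and NK cell list, 3 fell in LP Foxp3+ cells when paired (Klrd1, Gzma and Cd8a) and 0 when unpaired. The 8 measured CD8 T and NK cell genes summed to 1667 to 2156 in LP Foxp3+ and 5402 to 7151 in LP Foxp3- cells. Klrd1 differed by -2.56 (adjusted p = 0.00112 paired). Gzma read 5.80 to 6.18 in LP Foxp3+ and 9.72 to 10.42 in LP Foxp3- cells. Cd8a read 4.68 to 5.35 in LP Foxp3+ and 5.53 to 7.01 in LP Foxp3- cells, and Klrk1 6.41 to 6.61 in LP Foxp3+ and 7.18 to 7.72 in LP Foxp3- cells. Cd8b1 and Ncr1 were below the array median in both. The list summed to 4073 to 5256 in Sp Foxp3+ and 7795 to 7846 in Sp Foxp3- cells, and to 2414 to 2998 in SpRA Foxp3+ cells and 5762 on the SpRA Foxp3- array. In the LP-DC sort the DC and macrophage list did not overlap either (1507 to 1531 in LP Foxp3+, 1232 to 1406 in LP Foxp3- cells). Nor did the B cell sum, most of it Ighm (2295 to 2462 in LP Foxp3+, 1911 to 2150 in LP Foxp3- cells). The part of these lists in the Jun values was not tested.

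The DC source was compared within each sort. In Foxp3- cells Jun was lower with LP-DC, at 8.02 and 7.20 against 8.87 and 8.32 with Sp-DC. These groups did not overlap, as held for 17.8% of genes downward, and the differences within numbers were -0.85 and -1.13. Jun fell 1.98-fold (-0.99 ± 0.18, interval -1.38 to -0.59, adjusted p = 0.0440 paired and 0.635 unpaired). Its other probe set did not pass (-0.62, adjusted p = 0.0798 paired). The CD8 T and NK cell list summed to 5402 to 7151 in LP Foxp3- and 7795 to 7846 in Sp Foxp3- cells, and the DC and macrophage list to 1232 to 1406 in LP Foxp3- and 1755 to 2456 in Sp Foxp3- cells. In the DC and macrophage list, H2-Ab1, a class II gene, read 8.85 to 9.16 in LP Foxp3- and 9.88 to 10.69 in Sp Foxp3- cells. Itgax and the class II gene H2-Aa were below the array median in both, and Cd74, H2-Eb1 and Adgre1 overlapped. The B cell sum, most of it Ighm, was 1911 to 2150 in LP Foxp3- and 1418 to 1816 in Sp Foxp3- cells. The part of these lists in the Jun values was not tested.

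Junb had 4.79 and 5.20 in LP Foxp3- and 5.60 and 6.22 in Sp Foxp3- cells and lay just outside the threshold (-0.92 ± 0.20, adjusted p = 0.0612 paired). All but Sp Foxp3- array 2 were below their array medians for Junb and cannot be told from background. Fosl2 had 10.26 and 9.37 in LP Foxp3- and 10.64 and 11.38 in Sp Foxp3- cells (-1.19 ± 0.49, adjusted p = 0.265 paired). Of 6 members 1 fell, where 0.65% of genes fell and 0.861% were called. The unpaired fit called 0 of 6 (and 0% of genes), with 1 at an unadjusted p under 0.05, as were 794 of all 11846 genes. The Jun call did not survive the loss of LP Foxp3- array 2 (adjusted p = 0.305), of Sp Foxp3- array 1 (0.146) or 2 (0.428), or of either SpRA Foxp3+ array (0.0569).

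In Foxp3+ cells no member differed by DC source at the threshold, where 1.81% of genes did. Jun had 9.42 and 8.66 with LP-DC and 9.10 and 8.99 with Sp-DC (-0.01, interval -0.40 to 0.38), and Fos had 9.79 and 9.15 with LP-DC and 10.08 and 8.87 with Sp-DC (-0.01, interval -0.70 to 0.68). Fosl2 was 10.25 and 9.84 with LP-DC and 10.58 and 11.62 with Sp-DC (-1.05 ± 0.49, interval -2.16 to 0.05, adjusted p = 0.286 paired). Jund was 10.03 and 10.14 with LP-DC and 9.85 and 9.52 with Sp-DC (0.40 ± 0.16, adjusted p = 0.228 paired). Of 6 members limma called 0 in either fit (the unpaired fit 0% of genes). When paired 1, Jund, had an unadjusted p under 0.05, as did 2245 of all 11846 genes.

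LP-DC were also set against Sp-DC with added RA. In Foxp3+ cells Fos was lower with LP-DC, at 9.79 and 9.15 against 11.22 and 10.77 in SpRA. The groups did not overlap, as held for 12.6% of genes downward, and the differences within numbers were -1.43 and -1.63. Fos fell 2.89-fold (-1.53 ± 0.31, interval -2.22 to -0.84, adjusted p = 0.0403 paired and 0.586 unpaired). Of 6 members 1 fell, where 0.76% of genes fell and 1.87% were called. The unpaired fit called 0 (0.0929% of genes), with 1 at an unadjusted p under 0.05, as were 680 of all 11846 genes. The call was lost without LP Foxp3+ array 1 (adjusted p = 0.113) or 2 (0.282), SpRA Foxp3+ array 1 (0.138) or 2 (0.239), or either Sp Foxp3- array (0.0620). The DC and macrophage list summed to 1507 to 1531 in LP Foxp3+ and 1915 to 2936 in SpRA Foxp3+ cells. Within it Adgre1 read 6.96 to 7.09 in LP Foxp3+ and 8.10 to 8.97 in SpRA Foxp3+ cells, and H2-Ab1 read 9.52 in LP Foxp3+ and 9.89 to 10.78 in SpRA Foxp3+ cells. H2-Eb1 read 6.36 to 6.48 in LP Foxp3+ and 6.75 to 6.80 in SpRA Foxp3+ cells, Cd74 overlapped, and Itgax and H2-Aa were below the median. The CD8 T and NK cell list summed to 1667 to 2156 in LP Foxp3+ and 2414 to 2998 in SpRA Foxp3+ cells. The B cell sum, most of it Ighm, was 2295 to 2462 in LP Foxp3+ and 1890 to 2052 in SpRA Foxp3+ cells. The part of these lists in the Fos values was not tested.

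This comparison shares the SpRA Foxp3+ arrays with the RA comparison in Foxp3+ cells, which in turn shares the Sp Foxp3+ arrays with the DC comparison. Their Fos values, -1.53, 1.52 and -0.01, are therefore not independent. Against the single SpRA Foxp3- array, LP Foxp3- cells had Fos at -1.37 ± 0.39 (adjusted p = 0.190 paired) and Jun at -1.17 ± 0.22 (adjusted p = 0.0616 paired). Neither passed, and 0.523% of genes did. Of 6 members limma called 0, unpaired too (as of 0% of genes).

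**Figure D4:**
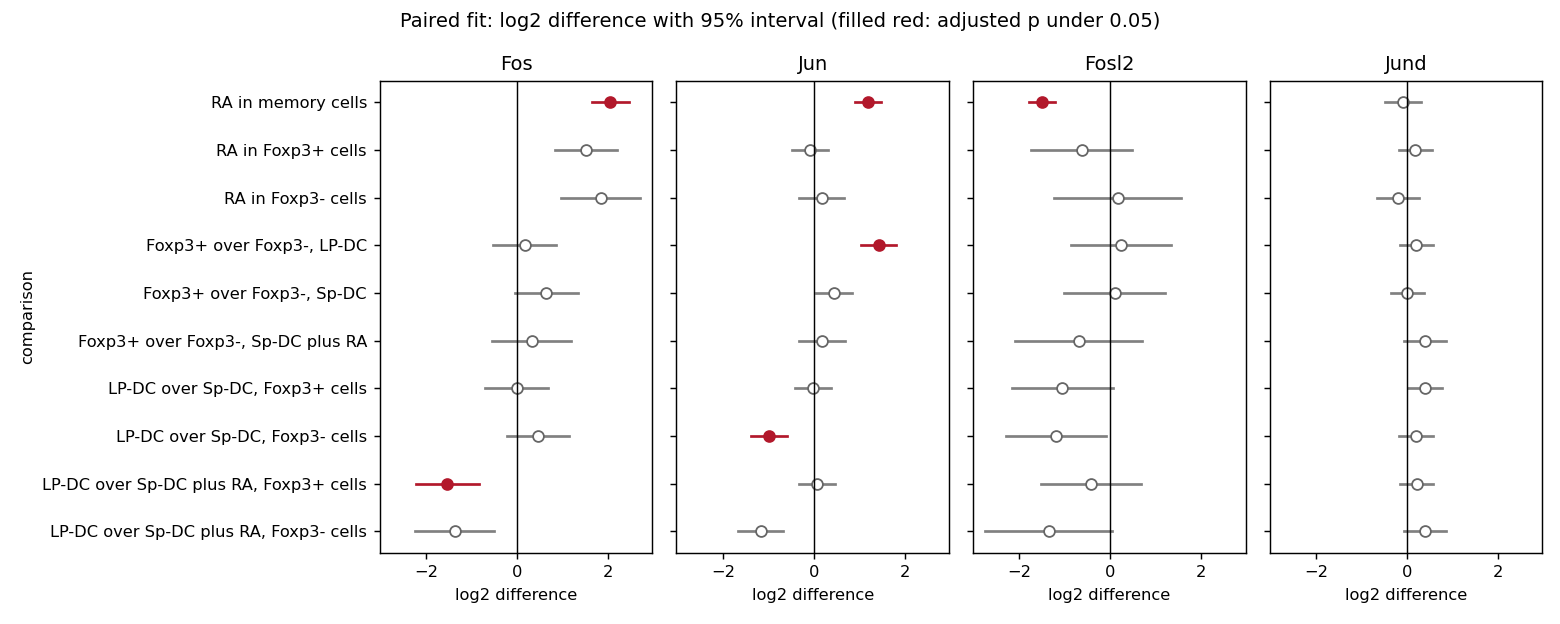
Paired-fit log2 difference with its 95% interval for Fos, Jun, Fosl2 and Jund in 10 comparisons, positive where the group named first was higher, with filled red points at an adjusted p under 0.05. Fos, Jun and Fosl2 passed for RA in memory cells, Jun in the LP-DC sort and between LP-DC and Sp-DC in Foxp3- cells, and Fos between LP-DC and SpRA in Foxp3+ cells.

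Genes that work with AP-1 were counted from 8 lists, which were written with earlier results of these data known. With RA in memory cells, most that passed in the paired fit fell, while the median of all genes was -0.00. Over all genes 2.6% rose and 2.34% fell, so 1 gene of a short list, as in several below, is near that share. Of 11 Batf, Atf and Jdp partners, 0 rose and 2 fell (list median -0.20). Atf3, a stress-induced repressor that can pair with Jun, fell by 2.61 on the log2 scale (adjusted p = 2.49e-05 paired and 0.0903 unpaired), and Batf3 fell by 0.81 (adjusted p = 0.00583 paired). Of 22 immediate early genes 0 rose and 3 fell (median -0.18), so Fos and Jun moved against the other early genes that passed. Ier3, an early response gene linked to survival, fell by 3.09 in both fits (adjusted p = 1.02e-05 paired and 0.0491 unpaired), the orphan nuclear receptor Nr4a3 fell by 0.93 (adjusted p = 0.0291 paired) and Dusp1, a phosphatase that switches off MAP kinases, fell by 0.73 (adjusted p = 0.0117 paired).

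Of 15 genes known to have AP-1 sites, 1 rose and 6 fell (median -0.26). The cytokine genes Il10 (-2.84 ± 0.13, adjusted p = 5.97e-06 paired and 0.00918 unpaired), Il4 (-1.99 ± 0.15, adjusted p = 0.000119 paired) and Ifng (-1.20 ± 0.19, adjusted p = 0.00521 paired) fell. Fasl, the ligand of the death receptor Fas, rose (1.32 ± 0.18, adjusted p = 0.00239 paired). Of 9 inducers of the SRF, ternary complex and CREB kind, 1 fell, Crem, which also makes a repressor of cyclic AMP responses (-1.15 ± 0.14, adjusted p = 0.00129 paired). Of 16 MAP kinases 1 fell, Map3k1 (-0.59, adjusted p = 0.0437 paired). Of 8 NFAT partners 1 rose, Runx1 (1.08 ± 0.16, adjusted p = 0.00383 paired). Of 9 turnover genes and co-factors, the ubiquitin ligase Nedd4 fell (-1.01, adjusted p = 0.00351 paired) and Nfkbiz rose (0.62, adjusted p = 0.0444 paired). Of 9 Maf and Bach factors limma called 0, with 1 at an unadjusted p under 0.05 when paired, as were 1898 of all 12062 genes.

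With the sort in the LP-DC culture, where 2.4% of all genes rose and 1.18% fell, early genes that passed all moved as Jun did. Of 23 immediate early genes 7 rose and 0 fell (median 0.57, against 0.00 for all genes). They were Nr4a3 (2.00 ± 0.19, adjusted p = 0.00113 paired), the G protein regulators Rgs2 (1.79 ± 0.15, adjusted p = 0.000610 paired) and Rgs1 (1.21 ± 0.25, adjusted p = 0.0320 paired), Dusp1 (1.25 ± 0.16, adjusted p = 0.00339 paired), Cd69, Nfkbia and Gadd45b. None of the 7 passed unpaired. When paired 13 of 23 had an unadjusted p under 0.05, as did 1500 of all 11846 genes. Of 11 zipper partners 2 rose, Jdp2 (1.21 ± 0.26, adjusted p = 0.0348 paired), a repressor that binds Jun, and Batf (0.92 ± 0.17, adjusted p = 0.0178 paired). Maf, a factor of Il4 and Il10 transcription, was the 1 of 9 Maf and Bach factors to pass and fell (-1.40 ± 0.22, adjusted p = 0.00795 paired).

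Of 15 genes with AP-1 sites 1 rose and 2 fell in that sort. Il2ra, which encodes a subunit of the IL-2 receptor, rose (1.99 ± 0.41, adjusted p = 0.0296 paired), and Ifng (-2.03 ± 0.39, adjusted p = 0.0218 paired) and Il4 (-1.02 ± 0.18, adjusted p = 0.0150 paired) fell. Averaged over the 3 cultures, 5 of 23 early genes rose and 0 fell (2.63% of all genes rose), and Dusp1 passed in both fits (0.67 ± 0.10, adjusted p = 0.00532 paired and 0.0472 unpaired). In the Sp culture, where 0.27% of all genes rose, Rgs2 was the 1 of 23 to rise (0.96 ± 0.15, adjusted p = 0.0353 paired).

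With RA in Foxp3+ cells, where 0.616% of all genes rose and 0.507% fell, 2 of 23 early genes rose, Egr2 (2.19 ± 0.26, adjusted p = 0.00441 paired) and Egr3 (2.33 ± 0.40, adjusted p = 0.0299 paired), zinc finger factors induced through the antigen receptor. In memory cells neither passed, and their RA effects differed between the experiments (Egr2 by -1.66, adjusted p = 0.0226, and Egr3 by -2.19, adjusted p = 0.0333, memory minus Foxp3+ cells, paired). The same difference, which was negative and passed for 0.569% of all genes, also passed for Atf3 (-2.16 ± 0.28, adjusted p = 0.00199 paired), Nr4a3 (-1.65 ± 0.31, adjusted p = 0.0173 paired), Il10 (-2.36 ± 0.34, adjusted p = 0.00389 paired) and Il4 (-1.96 ± 0.24, adjusted p = 0.00160 paired). Maf fell with RA in Foxp3+ cells (-1.20 ± 0.22, adjusted p = 0.0374 paired).

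With LP-DC over Sp-DC in Foxp3+ cells, where 1.17% of all genes rose and 0.642% fell, 3 of 23 early genes rose, Egr2 (1.84, adjusted p = 0.0243 paired), Nr4a3 (1.38, adjusted p = 0.0211 paired) and Rgs2 (1.09, adjusted p = 0.0211 paired). The NFAT and AP-1 partner Irf4 rose (1.10 ± 0.20, adjusted p = 0.0409 paired), and Maf fell (-1.83 ± 0.22, adjusted p = 0.0211 paired). Gzmb, of the list with AP-1 sites, also fell (-1.84 ± 0.20, adjusted p = 0.0124 paired). In Foxp3- cells, where Jun fell and 0.211% of all genes rose, Crem fell by 1.93 (adjusted p = 0.0489 paired) and Egr2 was higher by 1.58 (adjusted p = 0.0403 paired). Gzmb fell in these cells too (-1.89 ± 0.20, adjusted p = 0.0121 paired), where 0.65% of all genes fell. In LP over SpRA Foxp3+ cells, where Fos fell and 1.11% of all genes rose, Rgs2 rose (1.54 ± 0.15, adjusted p = 0.00140 paired), as did Batf (0.88 ± 0.17, adjusted p = 0.0369 paired) and the stress kinase Map3k5 (0.63 ± 0.12, adjusted p = 0.0369 paired). Gzmb (-1.62 ± 0.20, adjusted p = 0.00368 paired) and Mmp9 (-0.90 ± 0.16, adjusted p = 0.0257 paired) fell, as did 0.76% of all genes.

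Over all 17 arrays, with each experiment's mean removed, Fos and Jun had the highest correlation of any pair of members (Pearson r = 0.63). Fos and Fosl2 had r = -0.34, Jun and Fosl2 0.12, Fosl2 and Jund -0.53 and Fosl2 and Junb 0.54. Jun and Fosl1 (-0.68) and Fosb and Junb (-0.69) had the most negative values, each with a member near background. The genes most like Fos among 11431 others were Lztfl1 (0.911), Ccdc50 (0.879) and Enpp4 (0.865). Jun was most like Phc3 (0.951), Ube2z (0.940) and Babam2 (0.905), Fosl2 most like Dennd2c (0.937), Cnn3 (0.927) and Fam117b (0.926), and Jund most like 1700052K11Rik (0.910), Furin (0.884) and Tac1 (0.851). For the members near the median the closest were Gabarapl2 (0.910), Osgep (0.909) and Cyp21a1 (0.908) to Fosb, Vma21 (0.951), Ttll9 (0.949) and Fbxo10 (0.940) to Fosl1, and Apba3 (0.889), Ppp1r15a (0.880) and Cbr1 (0.879) to Junb. These correlations share arrays, numbers and groups, including the arrays numbered 3, and describe these 17 arrays alone.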

How the data were processed

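RNA of sorted T cells, linearly amplified per the labels, was hybridized to 17 Affymetrix M430 v2 arrays. The deposited values are linear intensity per probe set, made by the authors with the RMA method in GenePattern, per the series' design text, with the version and joint or separate normalization not given in the sources used here. Their log2 was taken with no pseudocount and no further normalization. Depth has no counterpart on arrays, and the number of arrays limits the precision. Another array of SpRA Foxp3- cells was not used here.

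Of the probe sets, 34958 have 1 gene symbol in the platform table, 932 several and 9211 none. A gene stands for its probe set of highest mean log2, and was tested where 2 or more arrays of the experiment put it over their median (12062 genes in memory, 11846 in co-culture, 11432 in both). One limma 3.58.1 model (R 4.3.3) per experiment had a term per group, or per group and array number. Benjamini-Hochberg adjustment covered all genes tested, in 11 comparisons and 2 interaction terms. Unpaired residual degrees of freedom were 4 (memory) and 5 (co-culture). Deviations from group means of arrays with the same number correlated at 0.65 to 0.94 (memory, 3 numbers) and 0.45 to 0.75 (co-culture, 10 pairs of groups). The numbers were therefore used to pair the arrays, a pairing inferred from these same data, and what the arrays of a number share was not tested. The scripts were tested on simulated data. That simulation kept the arrays' own number effects, which favours the paired fit, and in the memory comparison the share of false calls in the paired fit was above its nominal rate. The members, lists and tests were chosen with earlier results of these data known. The plan was to name all members in every comparison, up to 4 passing genes per list, and the 3 genes most correlated with each member. The text gives a selection of the list genes so named and of the member differences that did not pass. Fosb differences are left out of the text, and none passed. Alternatives covered normalization, the filter, an offset, the probe set rule, the variance model, the arrays fitted and the number block.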

Additional observations from a re-analysis of the deposited data

Results flagged for a closer look

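The RA effect on Jun differed between the experiments by a test of the difference itself. In log2 units it was larger by 1.28 in memory cells than in Foxp3+ co-cultured cells in the limma fit with the array number as a block (adjusted p = 0.00994), and the adjusted p without the block was 1.00. Memory arrays 1 and 2 lay below their array medians for this probe set, so the size is not settled. The other Jun probe set, above the median on every array, gave 0.76 and did not pass (adjusted p = 0.0958 with the block). Jun was higher with RA at 3 of 3 numbers in memory cells and at 1 of 2 in Foxp3+ cells. The cell type and the culture differ together between these experiments and cannot be told apart.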

How the results depend on the processing

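The pairing decided most calls. With the replicate block 3 members passed for RA in memory cells and 1 each for the sort averaged over cultures, the LP-DC sort, LP-DC over Sp-DC in Foxp3- cells, LP-DC over SpRA in Foxp3+ cells and the difference of RA effects, and with no replicate block 0 passed in each. The cause was not tested beyond the correlation of same-numbered arrays. The unpaired fit without both memory arrays numbered 3, an alternative chosen after seeing the data, called 3 members for RA in memory cells. Quantile normalization with the block called 1 member, Fos, for RA in Foxp3+ cells. Leaving out each array in turn with the block gave 3 to 3 members for RA in memory cells, 1 to 2 for the averaged sort and 1 to 1 for the LP-DC sort. It gave 0 to 1 for RA in Foxp3+ and in Foxp3- cells, LP-DC over Sp-DC in Foxp3- cells, LP-DC over SpRA in both sorts and the difference of RA effects. Without the block it gave 0 to 0 throughout. Log2 differences with an array left out were 1.84 to 2.32 for Fos, -1.54 to -1.44 for Fosl2 and 1.14 to 1.23 for Jun with RA in memory cells, and 1.24 to 1.61 for Jun in the LP-DC sort. Of the single-gene values, 248 kept direction and side of the threshold, 21 lost the call, 11 gained it and 0 reversed. Of the counts, 441 stayed within 1.5 times and 34 did not. Both tallies pool the 2 fits, and unpaired 0 members passed as reported, so an unchanged result there is a repeated non-call. With the block and an array left out, Jun passed in 6 of 11 settings for LP-DC over Sp-DC in Foxp3- cells. Fos passed in 5 of 11 for LP-DC over SpRA in Foxp3+ cells, and Jun in 15 of 17 for the difference of RA effects. Low signal limits Fosb, Fosl1 and Junb, and a lone SpRA Foxp3- array limits its comparisons.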
